A study of Mus musculus with 14 samples.

Results

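Within the CD4-SB thymic lymphomas, Il23r, the gene of the interleukin-23 receptor subunit, stood at either a high or a low level, and the 4 high tumours were compared with the 3 low ones across all other genes. The tumours were chosen by that measured level. The mean log2 value over the probe sets annotated to Il23r alone was taken in each of the 7 CD4-SB tumours, and a mean of 9 or more was called high. The high tumours were replicates 1, 2, 5 and 6 and the low tumours replicates 3, 4 and 7, numbered in accession order, out of 14 tumours in the whole series. The lowest high tumour was at 10.60 and the highest low tumour at 6.57, so no tumour lay near the boundary.

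All 7 tumours are mouse thymic lymphomas of the strain labelled CD4-SB, a model of T-cell acute lymphoblastic leukaemia in which Sleeping Beauty transposons move in the genome and mutate genes by insertion. The other 7 tumours of the series, labelled Vav-SB, served only to place the marker genes, Cd4 and Iltifb. As background on the study, the 2 names stand for the gene promoters that drive the Cre recombinase which switches on the transposase, so that both groups share the transposon system and differ in the cells where it starts. The study set the strains against each other, and its labels do not name a split by Il23r. Ages and treatments of the mice are not given in the labels, and no healthy thymus was among the samples used here. Some titles begin with a common number: replicates 1 and 2 carry 490, replicates 5, 6 and 7 carry 633, and replicates 3 and 4 carry 518 and 546. The high tumours therefore carry only 2 of these numbers, and 633 occurs in both groups. The labels do not say what the number means or whether each tumour came from a separate animal.

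The interleukin-23 receptor pairs the Il23r chain with Il12rb1 and signals through the kinases Jak2 and Tyk2 to Stat3 and Stat4. Among T cells it is known from Th17 cells and from gamma-delta T cells that make interleukin-17, which arise in the thymus and also carry Ccr6, Il1r1, the factors Sox13 and Maf, and the Src-family kinase Blk. Blk is otherwise best known as a kinase of B cells, and Clnk encodes an adaptor of the SLP-76 family that works in antigen receptor signalling.

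The promoter windows of the split markers are given first, because Il23r and Clnk were high in the same tumours. Both windows come from RefSeq on build GRCm38.p6 and run from 250 bases before to 50 after the start of the gene; Il23r lies at chr6:67491806-67492105 and Clnk at chr5:38876644-38876943, both on the minus strand. Capitals mark AGGTCA, an element bound by Rora and other nuclear receptors, or its reverse complement.
Il23r: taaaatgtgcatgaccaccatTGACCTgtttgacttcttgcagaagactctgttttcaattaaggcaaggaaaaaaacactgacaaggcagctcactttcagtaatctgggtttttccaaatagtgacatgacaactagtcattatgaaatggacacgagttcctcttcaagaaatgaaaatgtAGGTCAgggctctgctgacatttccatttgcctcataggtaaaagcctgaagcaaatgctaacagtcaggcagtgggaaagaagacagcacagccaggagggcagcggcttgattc
Clnk: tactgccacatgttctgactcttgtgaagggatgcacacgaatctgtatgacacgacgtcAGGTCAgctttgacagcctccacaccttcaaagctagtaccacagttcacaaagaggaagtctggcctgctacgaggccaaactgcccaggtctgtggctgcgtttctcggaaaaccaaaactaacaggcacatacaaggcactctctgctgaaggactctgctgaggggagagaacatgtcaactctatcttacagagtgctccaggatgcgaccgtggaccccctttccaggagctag
Counted back from the start site, the matches began at base -229 (minus strand of the window) and base -66 in Il23r and at base -190 in Clnk. Of all 32851 RefSeq promoter windows of this length, 16.3% hold AGGTCA on either strand, so a match is common. TGACTCA (AP-1), CAGCTG (an E box) and TGTGGTT (Runx), searched on both strands with no overlap with AGGTCA, had no match in either window; they occur in 5.2%, 16.3% and 5.27% of all windows. A match describes letters only.

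Il23r was at 10.60, 10.60, 11.50 and 11.07 in replicates 1, 2, 5 and 6 and at 6.57, 5.69 and 5.40 in replicates 3, 4 and 7. Levels are log2 values averaged over the probe sets of a gene, so a difference of 1 is a 2-fold difference. The high tumours averaged 10.94 ± 0.43 (SD, n = 4) and the low ones 5.89 ± 0.61 (SD, n = 3), a difference of 5.05 or 33.2-fold. This gene made the groups, so the value is a description. The same holds in a weaker sense for all other genes below: the split was made on these tumours, with earlier results of these data known, and no p-value is given for it. The Vav-SB tumours lay between 5.33 and 7.03, with replicate 1 the highest at 7.03, and all were under 9.

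Clnk divided the tumours in the same way. It was at 10.28, 10.10, 10.73 and 10.27 in replicates 1, 2, 5 and 6 and at 6.52, 6.19 and 5.94 in replicates 3, 4 and 7. The groups lay 3.58 apart at their closest, and their means, 10.35 ± 0.27 and 6.22 ± 0.29, differed by 4.13 or 17.5-fold. The Vav-SB tumours were all low, between 5.68 and 6.14.

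Blk was at 10.58, 9.64, 10.55 and 10.48 in the high tumours and at 7.14, 6.62 and 6.78 in the low ones, so replicate 2 was the lowest of the high tumours but still 2.50 above any low tumour. The means were 10.31 ± 0.45 and 6.85 ± 0.26, a difference of 3.47 or 11.0-fold. Unlike Clnk, Blk was also partly raised in 2 Vav-SB tumours, at 8.55 in replicate 1 and 8.79 in replicate 2. The other 5 lay between 6.69 and 7.37. Vav-SB replicate 1 also had the highest Il23r of the Vav-SB tumours, at 7.03.

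**Figure D1:**
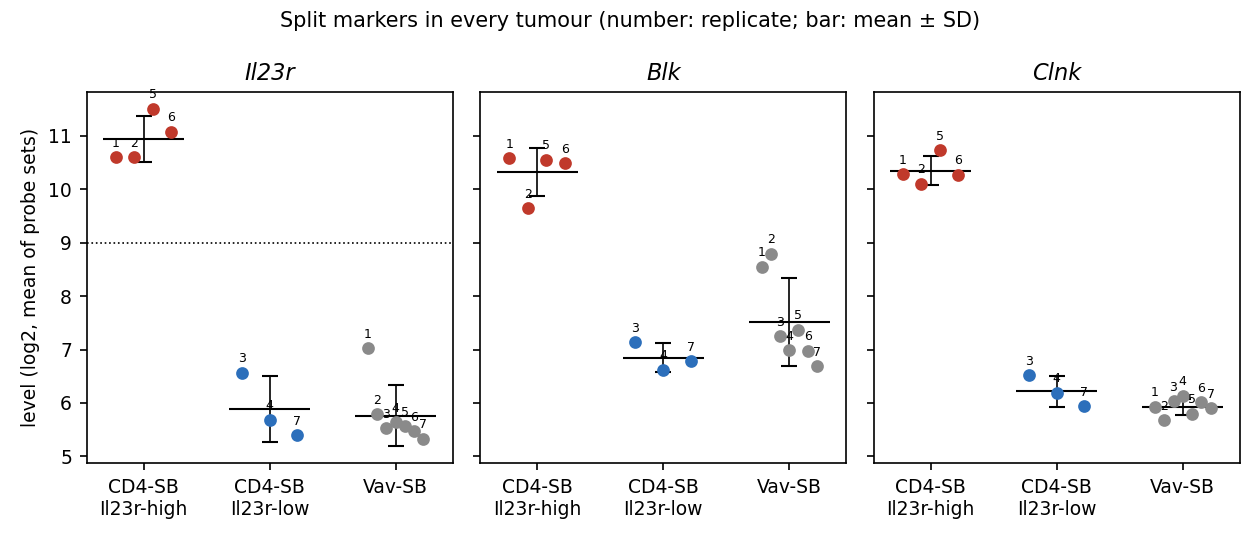
Levels of Il23r, Blk and Clnk (y axis, log2) in each tumour (points, numbered by replicate) of the Il23r-high CD4-SB, Il23r-low CD4-SB and Vav-SB groups, with mean and SD; the dotted line marks the boundary of 9 for Il23r. All 3 genes leave a wide gap between the 4 high and the 3 low CD4-SB tumours, and Blk reaches 8.55 and 8.79 in 2 Vav-SB tumours.

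The difference was seen in nearly all probe sets of the marker genes. All 13 Il23r probe sets, most of which read a single exon, were higher in every high tumour than in any low tumour, by 1.80 to 7.12 with a median of 5.03. All 13 Clnk probe sets were separated in the same way, by 2.41 to 5.58. For Blk 12 of 13 were, by 1.26 to 4.84. The exception, at 7.68 in the high and 7.48 in the low tumours, differed by 0.20. Positions of the probe sets were not used, so their order along the gene is unknown here.

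**Figure D2:**
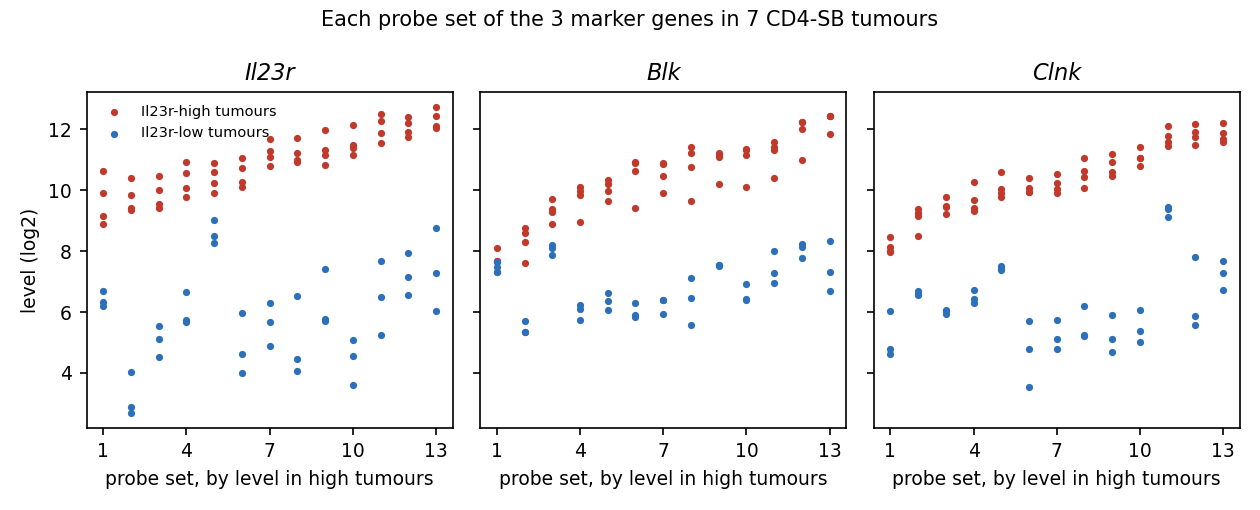
Level (y axis, log2) of each of the 13 probe sets of Il23r, Blk and Clnk in the 7 CD4-SB tumours (points; red for Il23r-high, blue for Il23r-low), with probe sets sorted by their level in the high tumours (x axis). Red points stay above blue ones at every probe set but 1 of Blk.

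The CD3 genes of T cells were set beside the label of a thymic lymphoma. Cd3d was between 11.55 and 11.89 in the high and between 11.98 and 12.09 in the low tumours, Cd3e between 11.07 and 11.58 and between 11.44 and 11.77, and Cd3g between 11.63 and 11.86 and between 11.48 and 11.53. Cd4 was at 7.18 to 7.53 in the high and 6.52 to 7.78 in the low tumours, below the 7.80 to 9.88 of the Vav-SB tumours in both. Cd8a spread widely without regard to the split, from 7.30 in replicate 6 to 10.99 in replicate 4. Tcra, the alpha chain of the antigen receptor, was at 7.52 to 8.14 and 7.29 to 7.89. Trgv3, a gamma chain segment measured by 1 probe set that may bind its relatives, was at 11.15 to 12.68 in the high tumours, 12.65 and 12.31 in replicates 3 and 4, and 8.71 in replicate 7. These genes were picked for the check of the label after their values were seen. Trdc and the constant gamma segments were not analysed here, and the receptor type of the tumours was not determined.

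Besides Il23r, 225 of 15802 genes were at least 2-fold higher in the high tumours with no overlap between the groups, which is 1.42% of genes, and 84 were at least 2-fold lower without overlap, which is 0.532%. These 309 genes (1.96%) are called separated below. In a further 212 genes the means differed at least 2-fold but the groups overlapped. Differences of at least 4-fold without overlap numbered 49 upward (0.31%) and 13 downward (0.0823%). Groups that did not overlap, by any margin, were found in 891 genes upward (5.64%) and 746 downward (4.72%), together 10.4%. Over all genes the median difference was -0.005. The counts rest on few tumours: without replicate 3 they were 366 and 195, without replicate 4 they were 233 and 131, and without replicate 7 they were 241 and 156. A low group of 2 tumours overlaps with the high group less easily, so larger counts are built into these settings. Of the 225 genes, 219 were still separated without replicate 3, 202 without replicate 4 and 206 without replicate 7. Leaving out a tumour cannot make separated groups overlap, so in these genes only the 2-fold difference could fail. The numbers retained are therefore largely fixed in advance.

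**Figure D3:**
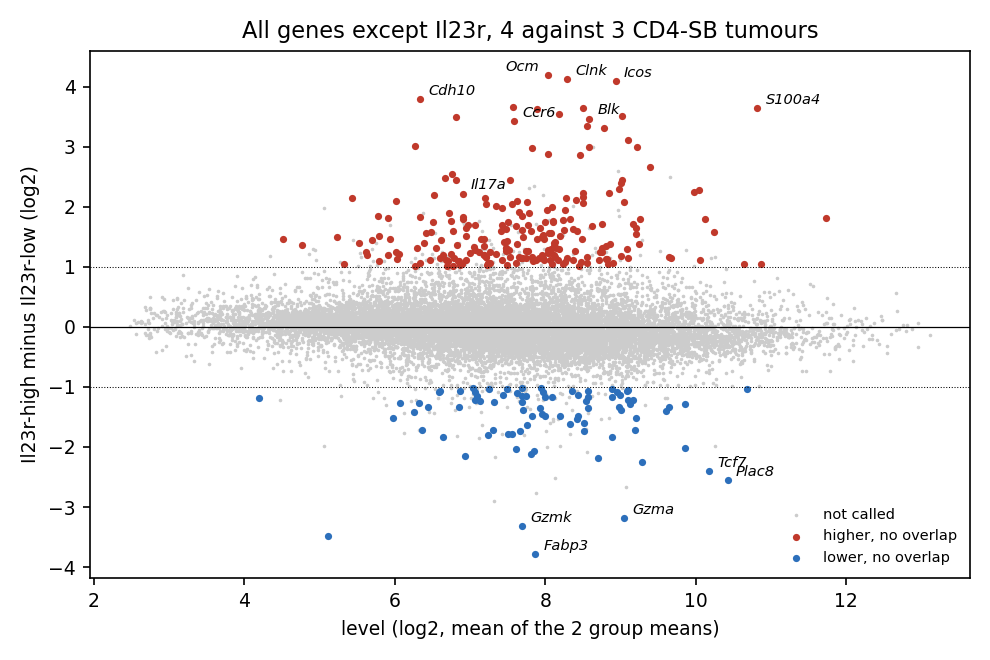
Difference between Il23r-high and Il23r-low CD4-SB tumours (y axis, log2) against the level (x axis, mean of the 2 group means, log2) for 15802 genes; red and blue points are the 225 and 84 separated genes, grey points all others, and dotted lines mark a 2-fold difference. Upward differences of over 3 are more numerous than downward ones.

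The largest upward differences came from genes of diverse kinds. Ocm, encoding the calcium-binding protein oncomodulin, was at 10.44, 10.37, 8.58 and 11.12 in replicates 1, 2, 5 and 6 and at 5.90, 6.01 and 5.87 in the low tumours, 18.4-fold higher on average. The low tumours were close together, and the spread lay in the high group, where replicate 5 was lowest. Icos, a costimulatory receptor of activated T cells, was at 11.32, 10.51, 10.73 and 11.39 against 7.22, 7.06 and 6.38, or 17.2-fold higher, with tight values in both groups. Cdh10, a cadherin known from the nervous system, was at 8.60, 7.98, 8.28 and 8.04 against 4.25, 4.35 and 4.69, or 13.9-fold higher.

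S100a4, a small calcium-binding protein of motile and memory-like T cells, was the most even of these within the high group. It was at 12.76, 12.56, 12.45 and 12.78 in the high tumours and at 9.64, 9.08 and 8.25 in the low ones, a 12.5-fold difference. Its relative S100a6, chosen after its values were seen, was 3.52-fold higher, at 12.45 to 12.91 against 10.68 to 10.99.

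Chemokine receptors of tissue-homing T cells were among the largest. Cxcr6, which guides T cells into peripheral tissue, was at 11.11, 10.15, 11.20 and 10.66 in the high and 7.85, 6.55 and 7.40 in the low tumours, 11.4-fold higher. Ccr6, the receptor for Ccl20 and a mark of interleukin-17-producing T cells, was at 9.92, 8.15, 9.65 and 9.50 against 6.60, 5.77 and 5.27, or 10.8-fold higher. Replicate 2 was the lowest high tumour in both genes.

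Besides Clnk and Blk, the rest of the 15 largest were Ceacam10 and Ly6g5b (12.6-fold each), Klrb1b (12.4-fold), Stab2 (11.7-fold), Cacna2d3 (11.3-fold), Igsf11 (10.1-fold) and Cpe (9.99-fold). These 15 were taken among genes with a higher group mean above 7.24. Klrb1b belongs to the family of C-type lectin receptors of NK and innate-like T cells and was highest in replicate 2, at 11.29 against 8.47, 8.99 and 10.10 in the other high tumours. It has 1 probe set here and near relatives that this probe set may bind. Ceacam10, an adhesion molecule with close relatives, was at 10.80 and 10.82 in replicates 1 and 6 but at 8.81 and 7.14 in replicates 2 and 5. Stab2, a scavenger receptor of sinusoidal endothelium, Cacna2d3, a calcium channel subunit, and Cpe, a carboxypeptidase that processes peptide hormones, were each low in all 3 low tumours, at 6.34 to 6.45, 5.00 to 5.09 and 6.69 to 7.40. For Stab2 66 of 69 probe sets and for Cacna2d3 35 of 38 were separated.

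**Figure D4:**
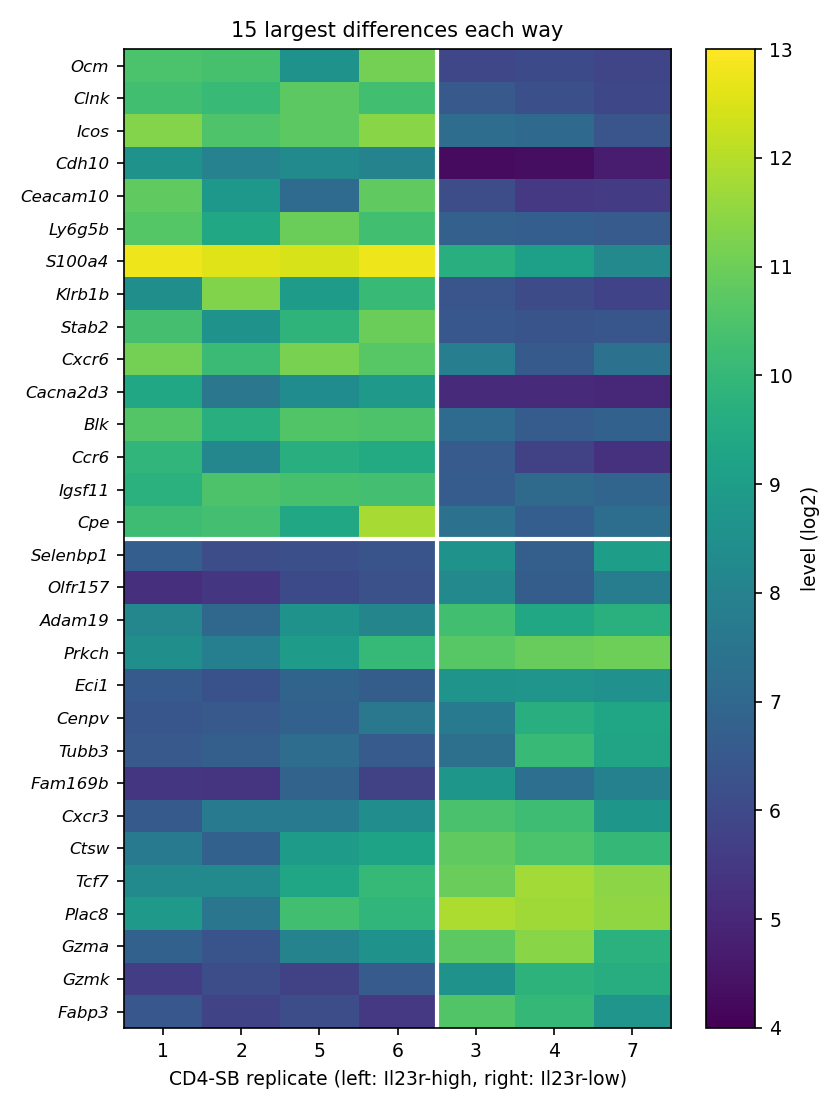
Level (colour, log2) of the 15 genes with the largest separated differences in each direction (rows), among genes with a higher group mean above 7.24. Columns are the 7 CD4-SB tumours, with Il23r-high to the left and Il23r-low to the right of the white line. The upper rows are brighter on the left and the lower rows on the right, with wide spread inside the high group for Ceacam10, Klrb1b, Plac8 and Gzma.

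Of 30 genes other than Il23r listed for interleukin-17-producing gamma-delta T cells, 19 were measured, and 9 of the 19 were separated upward and 0 downward, where 1.42% and 0.532% of all genes were. The median difference of the 19 was 0.91, beside -0.005 over all genes. Without replicate 3 it was 1.41. The list was written with earlier results of these data known, and Blk, which is in it, was known to follow the split. None of the lists was for Th17 cells, so the name of this list does not assign the tumours a cell type. Besides Blk, Ccr6 and Cxcr6, the separated members were the receptors Il1r1 and Il18r1, the nuclear receptor Rora, the adhesion receptor Cd44, and the cytokines Il17a and Il17f.

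Il1r1, the receptor through which interleukin-1 acts with interleukin-23 on these cells, was at 11.82, 9.89, 11.23 and 9.96 in replicates 1, 2, 5 and 6 and at 8.75, 7.86 and 7.55 in the low tumours, 6.36-fold higher. Rora, a nuclear receptor of interleukin-17-producing T cells, was at 9.15, 8.97, 9.40 and 9.36 against 7.64, 7.09 and 8.16, or 3.02-fold higher. Its high tumours were close together, and replicate 7 was the nearest of the low ones.

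Both interleukin-17 genes were highest in replicate 1. Il17a was at 11.13 in replicate 1, 8.25 in replicate 6, 6.56 in replicate 5 and 6.09 in replicate 2, against 5.76, 5.79 and 5.81 in the low tumours. The mean difference of 2.22 became 1.18 without replicate 1, and Il17a was not separated with a median over its probe sets (1.76) or with other cell types' markers as a covariate (2.08). Il17f was at 10.23, 7.25, 8.23 and 7.71 against 6.27, 6.21 and 6.52, a difference of 2.02 that was 1.40 without replicate 1 and still separated. In replicate 2 Il17a lay only slightly above the low tumours although its Il23r equalled that of replicate 1.

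Il18r1, a chain of the interleukin-18 receptor, was at 8.39, 9.65, 11.05 and 9.37 against 8.15, 7.19 and 6.80, 4.71-fold higher, and its partner chain Il18rap was at 7.88, 9.36, 7.97 and 6.93 against 6.0, 5.34 and 5.44, 5.44-fold higher. Il18r1 was not separated with a median over probe sets (difference 1.86), and within title number 633 its difference was 3.41. Cd44, raised on activated and memory T cells, differed by 1.14, which became 0.91 without replicate 7.

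Of the other 10 measured members, Il17re, a receptor chain for interleukin-17C, was at 7.77 to 8.0 against 6.91 to 6.99, a difference of 0.91 just under 2-fold with no overlap. Aqp3 differed by 0.61 without overlap. Il7r, Cd163l1, Dcstamp, Etv5, Sox4, Batf, Ahr and Sox13 overlapped between the groups, with differences from -0.37 for Sox4 to 0.86 for Il7r. Sox13, a factor of early gamma-delta cells, was nearly level in all 7 tumours, from 7.04 to 7.25. The remaining listed genes, Maf, Zbtb16, Il22 and Trdc among them, were not analysed here. Iltifb, a copy of the Il22 gene measured by 1 probe set that can bind Il22, was 3.42-fold higher, at 7.20, 7.30, 7.01 and 9.01 against 6.13, 6.19 and 5.25. In the Vav-SB tumours, all under 9 for Il23r, it was at 10.58, 11.01, 11.62, 11.09, 8.56, 11.54 and 5.89. Iltifb was chosen after its values were seen.

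Further genes with large differences were also chosen after their values were seen. Serpinb1a, a protease inhibitor, was at 10.39 to 11.21 in the high and 7.05 to 7.91 in the low tumours, 8.72-fold higher. Gpr183, an oxysterol receptor that steers lymphocyte migration, was 7.96-fold higher (9.97 to 11.05 against 7.20 to 8.43), and Hlf, a PAR bZIP transcription factor, 7.99-fold (9.71 to 10.32 against 6.71 to 7.71). Csf2, the cytokine GM-CSF, was at 6.71 to 8.22 against 5.21 to 5.68, 4.55-fold higher. Ltb4r1, a leukotriene receptor, Igf1r, the insulin-like growth factor receptor, Vdr, the vitamin D receptor, Nt5e, the ectonucleotidase CD73, and Tnf were 4.70-fold, 4.16-fold, 3.60-fold, 3.47-fold and 3.35-fold higher. All are among the 225 separated genes, although in Nt5e the groups came within 0.03 of each other.

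Of 8 measured genes listed for interleukin-23 receptor signalling other than Il23r, 1 was separated upward and 0 downward, beside 1.42% and 0.532% of all genes. The median difference was 0.21. This list takes in Il6st and Il12rb2, chains of related receptors. The median was 0.09 without replicate 1, 0.35 without replicate 3, 0.13 without replicate 4 or 7, and 0.63 within title number 633. The separated gene was Il12rb1, the second receptor chain, at 8.56, 8.11, 8.60 and 8.71 against 7.93, 6.51 and 7.59, a 2.22-fold difference that fell to 0.74 on the log2 scale without replicate 4. Stat4 was at 8.05, 9.42, 9.19 and 9.34 against 8.16, 8.46 and 5.78, and its difference of 1.53 rested largely on the low value of replicate 7. Jak2 differed by 0.35, Tyk2 by 0.19 and Stat3 by -0.10, all with overlap. Il6st, the shared signalling chain of interleukin-6 type receptors, was lower by 0.97 without overlap. Il12rb2 differed by 0.03 with overlap and Socs3 by 0.22 without overlap.

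Of 19 measured Src, Syk and Tec kinases, their adaptors and regulators, Blk and Clnk were the 2 separated upward and 0 were separated downward, beside 1.42% and 0.532% of all genes, with a median difference of 0.18. That median was 0.09 without replicate 1, 0.32 without replicate 2 and 0.38 without replicate 3. Fyn was at the same mean of 10.23 in both groups, Zap70 at 9.25 and 9.08, and Lcp2, which encodes SLP-76, at 10.48 and 10.38. Lat, the membrane adaptor, was higher by 0.54, and Plcg1 and the ubiquitin ligase Cbl were lower by 0.68 and 0.59, each without overlap but under 2-fold. The B-cell partners of Blk overlapped between the groups, Syk with a difference of 0.70, Btk with 0.18 and Blnk with 0.30.

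Of 19 cytokine receptor and JAK-STAT genes 3 were separated upward, Il18rap, Il18r1 and Il2ra, and 0 downward, beside 1.42% and 0.532% of all genes. Their median difference of 0.23 was 0.50, 0.55 and 0.47 without replicates 1, 2 and 3. Il2ra, the high-affinity interleukin-2 receptor chain, was at 9.76, 7.83, 10.60 and 9.68 against 7.51, 6.34 and 5.91, 7.37-fold higher, and replicates 2 and 3 were only 0.32 apart. Of 12 chemokine receptors and related genes 3 were separated upward, Cxcr6, Ccr6 and Ccr2, and 1 downward, Cxcr3, beside the same shares of 1.42% and 0.532%. Ccr2 was at 9.59, 10.56, 8.67 and 8.54 against 7.70, 7.22 and 6.68. Il2ra was also the only separated gene among 12 Notch targets, again beside 1.42% upward and 0.532% downward of all genes.

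Downward, the largest difference was in Fabp3, a fatty acid-binding protein measured by 1 probe set. It was at 6.44, 5.84, 6.13 and 5.49 in replicates 1, 2, 5 and 6 and at 10.57, 9.98 and 8.69 in replicates 3, 4 and 7, 13.7-fold lower in the high tumours. Eci1, an enzyme of fatty acid oxidation, was among the most evenly divided, at 6.55, 6.27, 6.90 and 6.66 against 8.65, 8.71 and 8.54, 4.11-fold lower.

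The granzyme genes Gzmk and Gzma, whose proteases serve cytotoxic T cells and NK cells, were lower in the high tumours. Gzmc was higher, with means of only 5.98 and 4.49, and its groups came within 0.03 of each other. Gzmk was at 5.64, 6.13, 5.76 and 6.58 against 8.62, 9.82 and 9.61, 9.98-fold lower. Gzma was at 6.78, 6.34, 8.04 and 8.64 against 10.74, 11.41 and 9.75, 9.06-fold lower. In Gzma replicates 5 and 6 were nearer to the low tumours than replicates 1 and 2 were, and within title number 633, where replicates 5 and 6 met replicate 7, the difference was -1.41 in place of -3.18.

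Ctsw, a cathepsin of cytotoxic cells, was at 7.69, 6.81, 8.93 and 9.22 against 10.80, 10.44 and 10, a difference of -2.25 that was -0.93 within title number 633. Of 21 measured cytotoxic and NK genes 3 were separated downward (Gzma, Gzmk and Tbx21) and 1 upward (Gzmc), beside 0.532% and 1.42% of all genes. Their median difference was 0.03, from -0.25 to 0.24 when 1 tumour was left out and 0.87 within title number 633. Tbx21, the factor T-bet, was at 7.06, 7.46, 7.49 and 7.71 against 8.64, 8.64 and 8.06. Its difference of -1.02 went under 2-fold without replicate 1 (-0.90), replicate 3 (-0.92) or replicate 4 (-0.92) and within title number 633 (-0.46). Cxcr3, a receptor that T-bet is known to switch on, was at 6.55, 7.75, 7.74 and 8.40 against 10.42, 10.20 and 8.77, a difference of -2.19 that was -0.70 within title number 633. Gzmc was at 7.57, 4.87, 5.18 and 6.30 against 4.84, 4.44 and 4.20. Its difference of 1.49 became 0.96 without replicate 1. The groups overlapped after quantile normalization (1.44) or with other cell types' markers as a covariate (1.39). Nkg7, which overlapped, was at 8.40, 7.54, 9.77 and 11.36 against 12.10, 10.99 and 10.66, and Gzmb, Prf1 and Klrd1 overlapped as well, with differences of 0.93, 0.55 and -0.01. Nkg7, Gzmb, Prf1 and Klrd1 were chosen after their values were seen.

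Tcf7, a gene of T-lineage commitment encoding the factor TCF-1, was at 8.26, 8.30, 9.30 and 10.03 in the high and 10.95, 11.75 and 11.43 in the low tumours, 5.29-fold lower. The order inside the high group followed the title number, with replicates 1 and 2 below replicates 5 and 6. Of 13 commitment genes 2 were separated downward, Tcf7 and Myb, and 1 upward, Il2ra, where 0.532% and 1.42% of all genes were. Myb was at 8.47, 7.05, 7.64 and 8.38 against 8.86, 9.08 and 9.78, and its difference of -1.35 was -0.91 with 1 tumour per title number. Id3, an inhibitor of E proteins, was at 6.90, 6.59, 7.05 and 7.48 against 7.94, 9.53 and 7.70. Its difference of -1.38 was -0.81 without replicate 4 and -0.43 within title number 633, and the groups overlapped with a median over probe sets (-1.26) or bright ones only (-1.10).

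Of 14 measured genes of the double-positive thymocyte stage, 2 were separated downward and 0 upward, beside 0.532% and 1.42% of all genes. Their median difference of -0.36 was -0.04 without replicate 4 and -0.08 within title number 633. Themis, which adjusts receptor signalling during selection, was at 6.44, 7.91, 7.31 and 8.20 against 10.04, 8.52 and 8.27. Its difference of -1.48 was -0.93 without replicate 3, -0.51 within title number 633 and -2.41 with 1 tumour per title number. Aqp11 was at 5.64, 6.44, 6.81 and 6.90 against 8.03, 8.82 and 7.66, a difference of -1.72 that was -0.80 within title number 633 and -0.92 with bright probe sets only.

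Among T-cell surface genes Cd6 was separated, at 7.18, 7.00, 7.20 and 7.62 against 8.40, 8.62 and 8.79, 2.55-fold lower. It was the only separated one of 11 measured receptor and CD3 genes, beside 0.532% of all genes downward. Their median difference of -0.47 was -0.29 and -0.26 without replicates 1 and 2 and -0.06 within title number 633. Cd28, the main costimulatory receptor, had a larger mean difference of -2.66 but overlapped: it was at 6.93 and 5.68 in replicates 1 and 2, 8.39 in replicate 5 and 9.96 in replicate 6, against 10.72, 9.81 and 10.66. Cd28 was chosen after its values were seen. It is a relative of Icos, which was higher in the same tumours.

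The other large downward differences, among genes with a higher group mean above 7.24, were Plac8 (5.86-fold), Fam169b (4.43-fold), Tubb3 (4.31-fold), Cenpv (4.18-fold), Prkch (4.03-fold), Adam19 (3.58-fold), Olfr157 (3.55-fold) and Selenbp1 (3.48-fold). Plac8 was at 8.86, 7.54, 10.26 and 9.93 against 11.89, 11.72 and 11.49, and its difference of -2.55 was -1.39 within title number 633. Prkch, a protein kinase C form of T cells, was at 8.49, 7.87, 8.99 and 10.04 against 10.65, 10.90 and 11.03. In Tubb3, a neuronal tubulin, and Cenpv the low tumours spread widely, and replicate 3, at 7.31 and 7.68, was only 0.11 and 0.09 above the nearest high tumour. In Selenbp1 replicate 4, at 6.72, was 0.02 above. Cenpv was not separated with a median over probe sets (-2.25) or bright probe sets only (-2.20), nor was Selenbp1 with bright ones (-1.28), while within title number 633 Selenbp1 differed by -2.77. With bright probe sets only, the Fam169b difference of -2.15 was -1.28. Tubb3 was measured by 1 probe set. Probe sets lower without overlap were 2 of 4 for Cenpv, 2 of 4 for Olfr157 and 1 of 3 for Selenbp1. For Plac8 they were 5 of 5, for Prkch 13 of 14, for Adam19 24 of 28 and for Fam169b 8 of 11.

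Of 24 measured genes listed as insertion targets of T-cell tumours in mice, 2 were separated downward (Zmiz1 and Myb) and 1 upward (Mycn), beside 0.532% and 1.42% of all genes. Zmiz1, a Notch1 cofactor, was tight in the high tumours, at 8.39, 8.43, 8.17 and 8.28, and wider in the low ones, at 9.89, 10.41 and 8.79. Its difference of -1.38 was -0.56 within title number 633, since replicate 7 was the lowest of its group. Mycn was at 7.22, 7.00, 7.60 and 7.12 against 6.09, 6.03 and 6.0. Its difference of 1.20 was 0.92 with a median over probe sets and 2.14 with bright probe sets only. Of 17 T-ALL transcription factors 1 was separated upward, Lmo4, and 1 downward, Myb, beside 1.42% and 0.532% of all genes. Lmo4 was higher (8.94, 9.18, 9.14 and 8.83 against 8.10, 8.03 and 7.13), and its difference of 1.27 was 0.95 without replicate 7, 0.97 with 1 tumour per title number and 1.98 with a median over probe sets. Itgb7, an integrin of gut-homing T cells, was higher by 1.17, which was 0.98 without replicate 7 and 0.92 with a median over probe sets.

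No separated gene was found among 14 PI3K and Akt genes, 13 p53 targets and CDK inhibitors, 10 Bcl2 family genes, 16 immediate early genes, 15 proliferation genes, 11 Myc target and ribosome biogenesis genes, 11 interferon-stimulated genes and 8 MHC class I genes. Of all genes 1.42% were separated upward and 0.532% downward, so finding none in lists this short is near that share. The median differences of these lists ran from -0.41 for the Myc targets to 0.28 for proliferation. The sign of some rested on single tumours: without replicate 3 the proliferation median was -0.56 and that of MHC class I turned from -0.31 to 0.12, and without replicate 2 the latter was 0.09. The interferon median of 0.15 was -0.02, -0.03 and -0.20 without replicates 1, 4 and 7. Within title number 633 the medians were -0.59 for proliferation and 0.53 for MHC class I. The Myc target median was negative in each of these settings, at -0.72 without replicate 3 and -0.15 without replicate 4. All 11 Myc targets had a lower mean in the high tumours, but the groups overlapped in the list's mean level. It was 8.59 to 9.51 in the high and 8.65 to 9.67 in the low tumours.

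**Figure D5:**
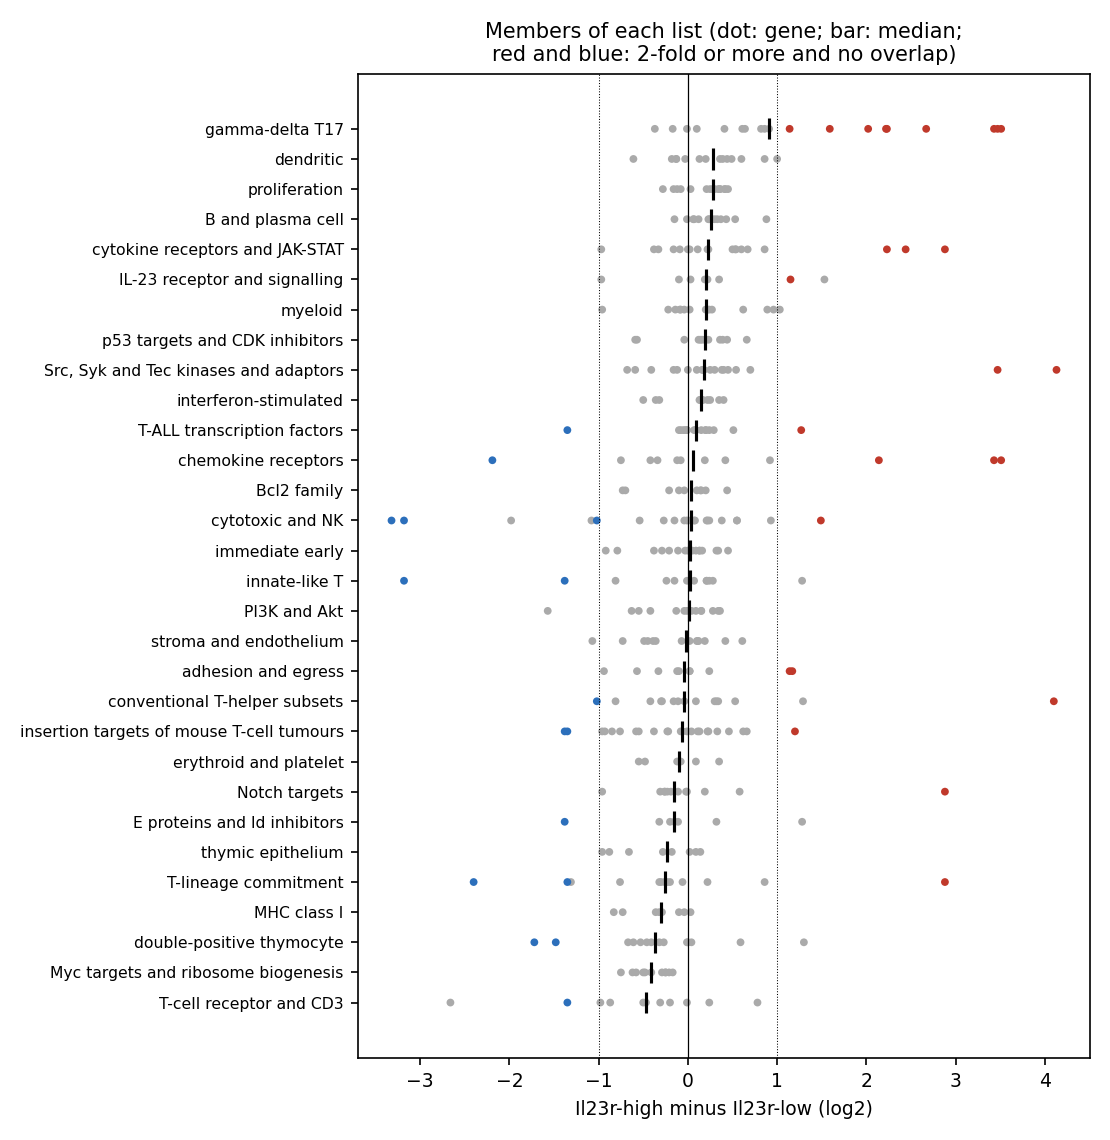
Difference between Il23r-high and Il23r-low CD4-SB tumours (x axis, log2) for the measured members (dots) of each gene list (rows) with the list's median (bar); red and blue dots are separated genes, and dotted lines mark a 2-fold difference. The gamma-delta T17 list has the highest median, 0.91, while most lists centre near 0 with single genes far out.

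In bulk tumours, fewer cells of a type and less RNA per cell cannot be told apart, so markers of other cells were set beside the comparison. Of 71 measured markers of myeloid, dendritic, B and plasma, stromal, epithelial and erythroid cells, 0 were separated, beside 1.96% of all genes. For 71 genes 0 is near that share. Of these markers 42 had a higher mean in the high tumours. Their mean level was 8.48, 7.54, 8.37 and 8.18 in replicates 1, 2, 5 and 6 and 8.44, 8.13 and 7.67 in replicates 3, 4 and 7, so the groups overlapped fully. The array's log2 scale has no zero, so none of these markers can be called absent. With that level as a covariate, 215 of the 225 and 82 of the 84 separated genes stayed separated, and 248 and 113 were separated in all. Of these 6 lists only thymic epithelium did not overlap in its mean level, at 7.32 to 7.74 in the high and 7.80 to 7.87 in the low tumours, and its part in the results was not tested. Within title number 633 the median difference was 1.9 for dendritic, 1.64 for B and plasma and 0.11 for myeloid markers. It was -0.02 for stromal, -0.32 for epithelial and -0.35 for erythroid markers.

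Replicate 3 stood apart in other ways. The Y-linked genes Eif2s3y and Kdm5d were at 9.96 and 8.55 there and at no more than 4.16 and 5.28 in the other 6 tumours, and the mean of the 15 proliferation genes was 7.46 there and 8.91 to 9.85 in the others. It was also the low tumour nearest to the high group in 139 of the 225 genes higher there. On the other side, replicate 2 was the high tumour nearest to the low group in 103 of them. Eif2s3y and Kdm5d overlapped between the groups and were named because of their values in replicate 3.

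The high tumours differed more among themselves than the low ones in the genes that were higher. The median range over the 4 high tumours was 1.03 and over the 3 low tumours 0.55, although a range grows with the number of tumours. In 38 of the 225 genes the high tumours spanned more than 2, against 1 gene in the low tumours. The 84 lower genes showed no such contrast, with median ranges of 0.95 in the high and 0.96 in the low tumours. There 6 genes spanned more than 2 in the high tumours and 6 in the low ones. Near background, differences come out too small, and its part in the narrower range of the low tumours was not tested. Il1r2, a decoy receptor for interleukin-1, spanned the most, with 12.47 in replicate 2, 9.90 in replicate 1, 7.90 in replicate 5 and 6.97 in replicate 6. Clec4e, a C-type lectin best known from macrophages, was at 10.56 in replicate 1 and 6.07 to 7.99 in the others, and Hsd17b7, an enzyme of sterol synthesis, at 10.83 in replicate 1 and 6.99 to 7.99 in the others. Il1r2, Clec4e and Hsd17b7 were chosen by this range. The mean level of the myeloid markers was also highest in replicate 1, at 9.40, and its part in Clec4e was not tested.

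The tumours that share title number 633 held both states. Replicates 5 and 6 were at 11.50 and 11.07 for Il23r and replicate 7 at 5.40. Of the 225 genes higher in all high tumours, 196 were also at least 2-fold higher in both replicates 5 and 6 on average against replicate 7, without overlap, and of the 84 lower genes 43 were lower in that way. These counts use a subset of the same tumours and are no independent check. Over all genes, correlations between pairs of tumours were 0.926 to 0.962 within the high group, 0.925 to 0.965 within the low group and 0.904 to 0.951 between the groups, ranges that overlap.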

How the data were processed

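RNA of snap-frozen tumours was amplified from a small input and hybridised to mouse exon arrays, per the labels' protocols, a step that can add spread and distort exons. The authors deposited log2 values, 1 per probe set and tumour; per the submitters' processing notes the tools were RMA and Partek (no version). The log base was read from the range, 2.03 to 14.03. Column medians of the CD4-SB tumours lay between 7.47 and 7.50. With 4 and 3 arrays, precision is limited, and near background differences come out too small.

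Of 194293 probe sets, 179496 had 1 gene symbol, 1328 several and 13469 none; those with 1 were averaged into 15803 genes after symbols were updated through a GRCm38.p6 gene table (13727 current, 2014 replaced, 32 ambiguous, 25 kept, 5 unmatched). Python 3.11.15, pandas 2.3.3 and numpy 2.4.6 were used. The deposited table gives no replicate of a single tumour, and the labels do not say that tumours came from separate animals.

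Groups were cut from measured Il23r at 9, so differences of means are described without p-values. A gene is separated where the difference is at least 1 (log2) and the groups do not overlap; the rule was checked on simulated data. Genes named are the split markers, the 15 largest separated differences each way with a higher group mean above 7.24 (the middle of all gene levels), up to 4 separated members per list, and members of 3 lists (interleukin-23 signalling, gamma-delta T17, Src, Syk and Tec kinases); others are marked. Members and the 31 lists were chosen with earlier results of these data known. The sequences searched were RefSeq promoters, found for Il23r and Clnk.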

Additional observations from a re-analysis of the deposited data

Results flagged for a closer look

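Values were set against the rest of their group by Dixon's test in 86 checks, of which chance flags about 1 in 20. Blk was at 9.64 in replicate 2, below 10.48 to 10.58 in the other high tumours. The mean level of the T-ALL transcription factor list was 6.85 in replicate 7, below 7.04 to 7.18 in the other 6 CD4-SB tumours. The mean level of the proliferation list was 7.46 in replicate 3, below 8.91 to 9.85 in the others. The myeloid list was at 9.40 in replicate 1, above 8.47 to 8.80 in the others. The 2 measured Y-linked genes averaged 9.26 in replicate 3, above 4.45 to 4.70 in the others. Il23r was at 7.03 in Vav-SB replicate 1, above 5.33 to 5.79 in the other 6 Vav-SB tumours.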

How the results depend on the processing

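Of the 51 named separated genes, 33 stayed separated under each alternative that could give a value (14 in all), and no named separated gene changed direction. Part of this is built in. Where tumours are only left out, separated groups cannot come to overlap, and only the 2-fold difference can fail. Keeping genes above the median level leaves the values of these genes unchanged. Leaving out 1 tumour moved the counts of higher and lower genes between 222 and 366 and between 94 and 195. Within title number 633 (2 against 1 tumours) they were 723 and 395, with 1 tumour per title number (2 against 2) 396 and 213, and with a difference of at least 2 on the log2 scale 49 and 13. Fewer tumours overlap less easily by construction. The Blk difference was 3.90 with a median over probe sets. Single Blk probe sets differed by 0.20 to 4.84, with a median of 3.77, and a mean counts the low ones fully. The Clnk difference was 4.56 within title number 633. There replicates 5 and 6, at 10.73 and 10.27, met replicate 7 at 5.94, the lowest of the low tumours. Without 1 tumour, Blk stayed between 3.35 and 3.69 and Clnk between 3.99 and 4.28. Median over probe sets, bright probe sets, genes above the median level, quantile normalization and the marker covariate left both counts within 1.5 times. No paired analysis was possible because the replicate numbers only follow accession order, and title number 633, the only one in both groups, links 2 high tumours to 1 low tumour; its values are those given within 633.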

Other observations

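A second division of the CD4-SB tumours crossed the Il23r split. The mean of 11 Myc target and ribosome biogenesis genes was 9.51, 9.67 and 9.62 in replicates 2, 4 and 7 and 8.59, 8.65, 8.77 and 8.75 in replicates 1, 3, 5 and 6. Proliferation genes were likewise at 9.75, 9.85 and 9.71 in replicates 2, 4 and 7 and at 8.94 or below in replicates 1, 3 and 5, with replicate 6 at 9.16. Dendritic markers were lower in replicates 2 and 7, at 7.40 and 7.34, than in the other 5 tumours, at 8.43 to 9.08. The interferon-stimulated list was at 7.04, 7.17 and 7.08 in replicates 2, 4 and 7 and at 7.76 to 8.72 in the others. These tumours were picked out by the values themselves, so no test is given.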
